A study of Bos taurus with 16 samples.

Results

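The first steps of the response to lipopolysaccharide (LPS), the outer membrane component of Gram-negative bacteria, were examined in whole blood of dairy cows. The genes were CD14, LY96, LBP, MYD88, TIRAP, TICAM1, IRAK1, IRAK4, TRAF6 and TOLLIP, that is 10 of 16966 gene symbols on the array. Their probes were found by gene symbol, and are 22 of the 43653 probes that are not controls. The animals were lactating Holstein Friesian cows, 5 in each of 2 arms, of which one received the Fastrack microbial pack (yeast culture, Aspergillus oryzae extract and products of Enterococcus faecium, Lactobacillus acidophilus and Bacillus subtilis) and the other water, for 60 days. The groups were day 0 (before the supplement), probiotic (day 60, supplement), untreated (day 60, water) and LPS (day 60, supplement, with LPS added to the drawn blood at 100 ng/ml). All jugular blood, with LPS or without, was collected into ACD tubes and kept for 30 min at 37 °C in 5% CO2. Each group was hybridised to 4 single-colour Agilent arrays of 60-base probes.

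LPS is taken up by the serum protein LBP, passed to CD14 on the surface of monocytes and neutrophils, and loaded onto LY96 (MD-2), which holds it within the receptor TLR4. TLR4 then recruits adaptors at the membrane: TIRAP bridges to MYD88, which assembles the kinases IRAK4 and IRAK1 and the ubiquitin ligase TRAF6, while TICAM1 (TRIF) carries a separate branch towards interferon genes. TOLLIP restrains this signalling.

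Each group's 4 arrays carry the same pool of RNA from several cows, and all p-values below measure only the spread between repeat arrays. Slide was assigned by group and not read from the data, so each group counts here as a slide of its own. Only the probiotic and LPS arrays shared a scan day. In the other comparisons group and scan day cannot be told apart. If each group had a slide of its own, group and slide cannot be told apart in any comparison. The labels do not say whether the day 0 pool holds the cows that later drank water. Arrays differed in how many spots the scanner software called well above background: 26.4 to 37.1% on the probiotic, 22.5 to 42.1% on the LPS, 8.26 to 23.0% on the day 0 and 12 to 17.9% on the untreated arrays. The lowest net signal that earned this call was 78.3 to 129 scanner units on the untreated arrays and 30.7 to 50.6 on the others, net signal being the spot's intensity after background subtraction. Day 0 replicate 4 and LPS replicate 4 stood apart, with a median rank correlation across probes of 0.483 and 0.484 with the rest of their group against 0.753 to 0.857 for the other day 0 and LPS arrays. Untreated arrays correlated at 0.364 to 0.563 with their own group. Of the 3 markers fixed for blood as a whole, PTPRC (CD45, on white cells) and HBB (beta globin) were well above background on all probiotic arrays. Only 1 of the 3 was so on all day 0 and on all untreated arrays. PTPRC A_73_P072541 and A_73_P476493 were detected on 0 and 1 of the 4 untreated arrays and on 3 day 0 arrays each. PTPRC A_73_P072546 was detected on untreated replicates 1 to 3 and on none of probiotic replicates 1 to 3.

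The results below turn on probes of the same gene that behave differently, so the probe sequences that carry these findings are shown first, as they stand in the deposited table. The capitals mark AATAAA, the signal that precedes the poly(A) tail, searched on both strands. Of the 22 probes 4 hold it (18.2%), and of all probes 12.5% hold it on either strand. For those probes, and for the second IRAK1 probe, only the last 30 bases are given.
CD14 A_73_P108626: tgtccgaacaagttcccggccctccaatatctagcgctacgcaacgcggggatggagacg
CD14 A_73_105177, last 30 bases: catggctgtatgtcagtacccacAATAAAc
LY96 A_73_103418: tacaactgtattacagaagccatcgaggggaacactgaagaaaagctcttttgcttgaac
LY96 A_73_P150296: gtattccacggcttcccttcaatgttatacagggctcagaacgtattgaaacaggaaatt
MYD88 A_73_P033026, last 30 bases: cctaggtttatAATAAAgagtctctacttt
MYD88 A_73_P102901: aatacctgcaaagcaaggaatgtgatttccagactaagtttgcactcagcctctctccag
MYD88 A_73_119857: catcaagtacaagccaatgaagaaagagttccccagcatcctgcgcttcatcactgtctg
IRAK1 A_73_P034066: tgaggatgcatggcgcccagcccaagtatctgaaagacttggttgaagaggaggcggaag
IRAK1 A_73_111418, last 30 bases: ataagcgaggcattggtggaatccaagttc
TICAM1 A_73_113300: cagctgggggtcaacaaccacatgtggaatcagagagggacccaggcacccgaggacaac
TRAF6 A_73_P044016: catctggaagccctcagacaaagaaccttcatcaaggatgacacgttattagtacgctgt
Probes of a gene share no run longer than 7 bases over the 20 pairs, so their sequences differ. Where each lies on a transcript was not mapped. Their GC content runs from 35.0 to 60.0%, with a median of 45.0% that is also the median of all probes. The match of AATAAA is a description of these letters only. For CD14 A_73_105177, LY96 A_73_P150296 and IRAK1 A_73_111418 no accession in the files was paired with the same symbol by RefSeq, so their gene rests on the deposited table alone. Since probes differ in how well they bind, no probe's level is set against another's.

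Detection, which needs no scaling of arrays, is given first. On all 4 probiotic arrays 8 of the 22 probes were well above background (36.4%, against 23.9% of all probes), on all LPS arrays 4 (18.2% against 15.2%), on all day 0 arrays 2 (9.09% against 6.59%) and on all untreated arrays 2 (9.09% against 5.65%). These 8 probes, of 6 genes (CD14, LY96, MYD88, TICAM1, IRAK1 and TRAF6), also passed the filter of the test, which asked that 1 group or more detect the probe on every one of its 4 arrays. LY96 A_73_103418, IRAK1 A_73_P034066 and TRAF6 passed the filter through the probiotic group alone, so calls of these as higher there are conditioned by the filter. The other 14 probes were not tested. Among these, 7 were not well above background on any array: both probes of IRAK4, the only probe of TIRAP, 1 of 2 probes of TOLLIP and 3 of 5 of LBP. Such spots give only a bound, and do not show that the transcript is missing.

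**Figure D1:**
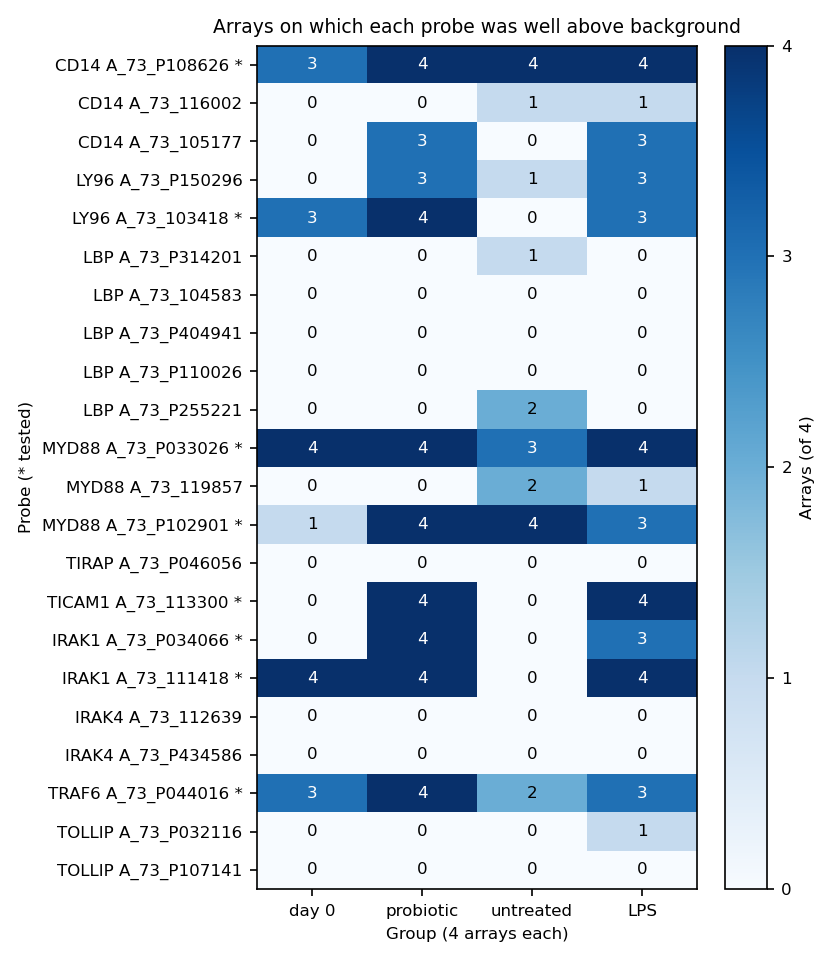
Number of arrays, of 4 in each group, on which each of the 22 probes was well above background; rows are probes ordered by role, columns are groups, and a star marks the 8 tested probes. IRAK1 A_73_111418 was detected on 4 day 0, 4 probiotic and 4 LPS arrays and on 0 untreated arrays, while MYD88 A_73_P102901 and CD14 A_73_P108626 were detected on 4 untreated arrays.

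Among the molecules that bind LPS, CD14 was read by 3 probes that gave 3 different pictures. For A_73_P108626 the net signals were 65.6, 73.3, 111 and 16 on day 0 replicates 1 to 4, 210, 185, 182 and 185 on the probiotic, 600, 172, 321 and 143 on the untreated, and 255, 203, 191 and 67.7 on the LPS arrays. The day 0 signals lay below all others except LPS replicate 4, and the untreated signals spread around those of the probiotic arrays. The share of all probes with such an order is not given here. A_73_105177, the CD14 probe with AATAAA, gave 261, 216, 274 and 9.86 on the probiotic and 52.0, 197, 509 and 18.1 on the LPS arrays. It stayed at 0.34 to 17.5 on the day 0 and -20.1 to 3.88 on the untreated arrays and was detected on no array of either group. The third probe, A_73_116002, was detected on untreated replicate 3 (118) and LPS replicate 4 (54.5) and on no probiotic array. CD14 is a monocyte marker, and fewer monocytes and less CD14 RNA per cell cannot be told apart in whole blood.

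LY96, the LPS-binding partner of TLR4, had 2 probes. A_73_103418 gave 326, 310, 291 and 23.1 on day 0, 1024, 904, 957 and 458 on the probiotic, and 702, 951, 647 and 30.9 on the LPS arrays, all detected except replicate 4 of day 0 and of LPS. On the untreated arrays it gave -3.80, -10.95, -3.37 and 65.8, and none of these was detected. The second probe, A_73_P150296, was detected on 3 probiotic (52.3, 71.7 and 71.4), 3 LPS (54.3, 55.5 and 46.6) and 1 untreated array, and on no day 0 array. That untreated array, replicate 2, was its brightest spot at 253.

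LBP, an acute-phase protein made mainly by the liver, was detected in 3 spots out of all 5 probes and 16 arrays. These were A_73_P255221 on untreated replicates 2 and 3 (221 and 155) and A_73_P314201 on untreated replicate 3 (90.6). On the probiotic and LPS arrays these probes ran from -10.9 to 7.48. Of 5 liver markers, none (0) was detected on all probiotic or on all untreated arrays. The only one tested, APOA1, was undetected on all probiotic arrays. There it was at least 4.41-fold lower than in LPS blood (limma adjusted p = 0.0111), at least 7.25-fold lower than in untreated blood (detected on 1 of its 4 arrays; adjusted p = 0.000136) and at least 9.88-fold lower than on day 0 (adjusted p = 0.00222).

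Among the adaptors, MYD88 had 3 probes. A_73_P033026, which holds AATAAA, gave 2753, 2604, 2027 and 712 on day 0, 9590, 8464, 8299 and 1543 on the probiotic, 880, 1719, 1289 and -0.15 on the untreated and 12194, 15829, 12481 and 971 on the LPS arrays. Replicate 4 of every group fell below the rest of its group. A_73_P102901 gave 214, 205, 196 and 179 on the probiotic, 154, 162, 148 and 3.48 on the LPS and 27.0, 33.2, 31.3 and 2.38 on the day 0 arrays. On the untreated arrays it gave 341, 161, 479 and 194, a range that holds the probiotic values. The third probe, A_73_119857, was detected on untreated replicates 1 and 3 (561 and 139) and LPS replicate 4 (52.9), and stayed at 9.31 to 27.1 on the probiotic arrays.

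TICAM1, the adaptor of the interferon branch, was detected on every probiotic array (113, 105, 105 and 94.8) and every LPS array (131, 121, 107 and 51.6). It was detected on no day 0 array (2.69 to 15.3) and no untreated array (35.2, 28.2, 40.4 and 117). TIRAP, the bridge to MYD88, ran from -17.4 to 34.2 over all 16 arrays.

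Downstream of MYD88, the kinase IRAK1 had 2 probes, of which A_73_111418 was detected in 3 groups and undetected in the other. Its probe A_73_111418 gave 999, 941, 890 and 146 on day 0, 6238, 5783, 5689 and 5151 on the probiotic and 5413, 5548, 5330 and 82.9 on the LPS arrays, all of them detected. On the untreated arrays it gave -2.58, -2.15, -3.53 and -1.70, and none of these was detected. The other probe, A_73_P034066, gave 110, 106, 113 and 107 on the probiotic and 112, 114, 114 and 16.9 on the LPS arrays, and was detected on no day 0 array (9.45 to 25.5) and no untreated array (38.9, 11.4, 37.2 and 30.0). Both probes were thus undetected on the untreated arrays, and the 3 bright LPS arrays of each lay close to its probiotic arrays. The probiotic signals of A_73_P034066, 106 to 113, lay within the 78.3 to 129 units needed for detection on the untreated arrays. Its missing detection there therefore does not separate the groups.

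IRAK4, the kinase that starts the cascade, ran from -77.5 to 18.1 with A_73_112639 and from -32.0 to 33.8 with A_73_P434586. TRAF6, the ligase downstream of IRAK1, gave 134, 134, 120 and 12.3 on day 0, 757, 772, 707 and 416 on the probiotic and 580, 711, 601 and 3.26 on the LPS arrays, against -30.9, 116, 129 and 11.7 on the untreated arrays, of which replicates 2 and 3 were detected. All day 0 and untreated net signals of TRAF6 lay below all probiotic ones, but the probiotic arrays were brighter as a whole. Relative to the scaling level described below, untreated replicates 2 and 3 stood at -3.58 and -3.15, above the probiotic -4.11 to -3.85. The share of all probes with such an order is not given here, so it is not read as a result about TRAF6. TOLLIP was detected in 1 spot, A_73_P032116 on LPS replicate 4 (120).

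**Figure D2:**
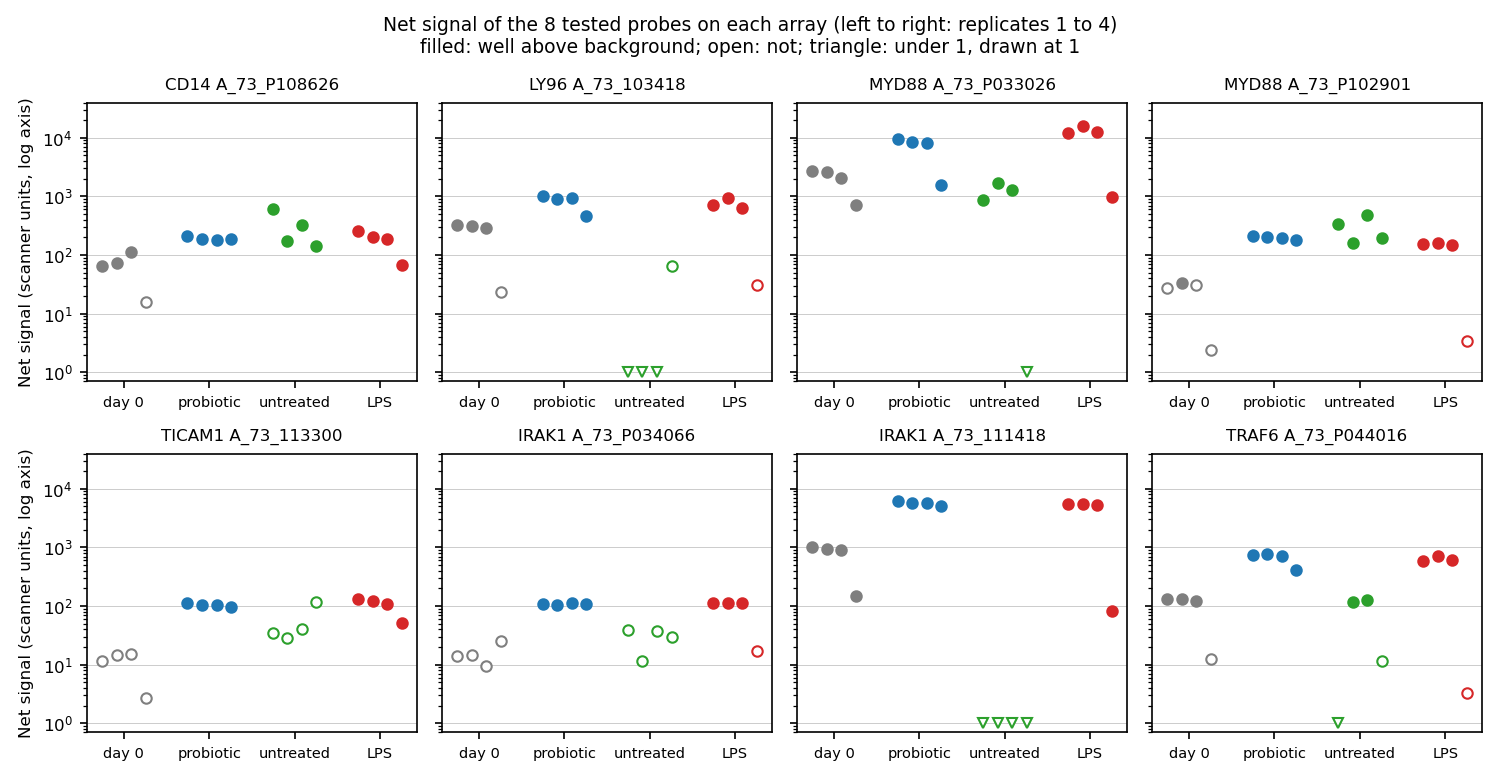
Net signal in scanner units on a log axis for the 8 tested probes, 1 panel a probe, with replicates 1 to 4 of each group from left to right; filled points are well above background, open ones are not, and triangles are values under 1 drawn at 1. IRAK1 A_73_111418 lay between 5151 and 6238 on the probiotic arrays and under 0 on all untreated arrays, and replicate 4 of LPS lay below replicates 1 to 3 for every probe shown.

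For the tests, log2 net signal was set relative to each array's 75th percentile over the 712 probes detected on all 16 arrays. That percentile stood at 7183 to 12470 scanner units on the probiotic, 1800 to 11197 on the LPS, 777 to 2988 on the day 0 and 1083 to 1381 on the untreated arrays. A probe of equal net signal is therefore placed higher on an untreated than on a probiotic array. Differences are given as log2 of the first group over the second, ± the standard error from limma (n = 4 arrays a group), and a probe passed at an adjusted p under 0.05, over all 12233 kept probes, with a fold of at least 2.

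LPS against probiotic blood asks what 30 min with LPS changed, and is the only comparison within 1 scan day. If the groups were on different slides, a difference between slides cannot be told apart from LPS in it. None of the 8 probes passed limma's test (0 also had an unadjusted p under 0.05), where 1.75% of all kept probes passed as higher and 0.123% as lower. The median of the 8 was -0.35, against -0.10 over all kept probes. MYD88 A_73_P033026 had the highest difference, 0.87 ± 0.998 (95% interval -1.25 to 3.00), and TRAF6 the lowest, -1.04 ± 0.802 (-2.75 to 0.67); adjusted p ran from 0.914 to 0.988 over the 8. The intervals are wide enough to hold 2-fold changes, and the misses do not show that LPS left these genes alone.

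Since replicate 4 stood apart, the comparison was repeated with array 4 of every group left out, an alternative added after the arrays had been seen. The filter and the probes used for scaling (now 1565) were taken again on the arrays left. On these 12 arrays 10 probes of the same 6 genes were kept and again 0 passed limma's test (1 had an unadjusted p under 0.05), against 4.23% higher and 3.89% lower of all 16261 probes kept. MYD88 A_73_P033026 was higher with LPS by 0.65 ± 0.208 (0.19 to 1.12), but did not pass (limma adjusted p = 0.0961). IRAK1 A_73_111418 differed by -0.08 ± 0.240 (-0.61 to 0.46), IRAK1 A_73_P034066 by 0.09 ± 0.381 (-0.76 to 0.93), TICAM1 by 0.19 ± 0.271 (-0.41 to 0.79) and LY96 A_73_103418 by -0.30 ± 0.255 (-0.87 to 0.26). For these 4 probes the interval leaves out a 2-fold change in either direction. For the other 5, CD14 A_73_P108626 (0.20 ± 0.484) and A_73_105177 (-0.48 ± 0.627), LY96 A_73_P150296 (-0.27 ± 0.630), MYD88 A_73_P102901 (-0.37 ± 0.396) and TRAF6 (-0.20 ± 0.484), it does not.

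Probiotic against untreated blood at day 60 asks what the supplement changed. Of the 8 probes 5 passed, 2 as higher and 3 as lower in probiotic blood, where 23.8% of all kept probes passed as higher and 35.3% as lower, so most kept probes passed as well. The median of the 8 was -0.33, against -0.30 over all kept probes. IRAK1 A_73_111418, undetected on every untreated array, was at least 6.82-fold higher with this scaling (fitted difference 5.09 ± 0.633, limma adjusted p = 9.45e-06). Without array 4 of every group, and with the scaling probes taken again, the bound was 11.8-fold. For such a bound, each dim spot was raised to the lowest signal that its array called well above background, unless it was higher already. LY96 A_73_103418 also passed as higher (adjusted p = 0.0115), but was undetected on every untreated array, and its bound fell under 1, so no fold is given; without array 4 of every group it was at least 1.92-fold higher (adjusted p = 9.57e-07). With the 712 scaling probes of all 16 arrays, that bound over replicates 1 to 3 was 1.09.

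CD14 A_73_P108626 and MYD88 A_73_P102901 were lower in probiotic blood by -3.53 ± 0.486 and -3.50 ± 0.472 (adjusted p = 2.37e-05 and 1.96e-05), and both were detected on all 8 arrays. Their net signals overlapped between the groups, as given above, and with arrays set relative to the median of all probes the differences were 0.24 and 0.28, with the sign turned. TICAM1 passed as lower (adjusted p = 0.00312) while undetected on every untreated array, so no fold is given; without array 4 of every group it did not pass (adjusted p = 0.0222, fitted difference under 2-fold), and relative to the median of all probes it turned to 1.87. MYD88 A_73_P033026 and TRAF6 did not pass (0.52 ± 0.998 and 0.49 ± 0.802), nor did IRAK1 A_73_P034066, undetected in untreated blood (limma adjusted p = 0.102). The fitted difference of IRAK1 A_73_P034066, -1.14, had the opposite sign to that of A_73_111418. Under 7 ways of scaling, IRAK1 A_73_111418 was higher in probiotic blood in all 7, from 2.00 to 8.87, and so was LY96 A_73_103418, from 0.23 to 5.69, though it did not pass with cyclic loess.

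Without array 4 of every group, 5 of 10 probes passed, 2 higher and 3 lower, against 35.5% and 31.4% of all probes kept there. The second LY96 probe, A_73_P150296, was then tested and passed as lower in probiotic blood (-2.56 ± 0.630, adjusted p = 0.00403) with 1 of 3 untreated arrays detected. The 2 LY96 probes thus passed in opposite directions.

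Untreated blood at day 60 against day 0 asks what 60 days without the supplement changed. Of the 8 probes 6 passed, 4 as higher and 2 as lower in untreated blood, against 39.9% and 16.3% of all kept probes, with a median of 1.01 against 0.93. CD14 A_73_P108626 was higher by 3.02 ± 0.486 and MYD88 A_73_P102901 by 4.37 ± 0.472 (adjusted p = 9.95e-05 and 2.56e-06); these were detected on 3 and 1 of the 4 day 0 arrays. TICAM1 and IRAK1 A_73_P034066 passed as higher (adjusted p = 0.000216 and 0.0223) while undetected in both groups, so no fold is given. IRAK1 A_73_111418 was at least 3.55-fold lower in untreated blood (-4.15 ± 0.633, adjusted p = 6.07e-05), and LY96 A_73_103418 passed as lower with a bound under 1 (adjusted p = 0.0112). The 2 IRAK1 probes thus passed in opposite directions, A_73_P034066 while undetected in both groups. The call of IRAK1 A_73_P034066 was lost when any one of day 0 replicates 1, 2 and 3 or untreated replicates 1 and 3 was left out (limma adjusted p from 0.0581 to 0.0810). Without array 4 of every group 8 of 10 passed, 6 higher and 2 lower, against 40.5% and 28% of all probes. Of the 6, CD14 A_73_105177, TICAM1 and IRAK1 A_73_P034066 were undetected in both groups, and the net signal of CD14 A_73_105177 was lower in untreated blood (mean 1.17 ± 3.47, SD, n = 3) than on day 0 (5.18 ± 5.03), against the direction of its call.

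Probiotic blood at day 60 against day 0 follows the supplemented arm over time. None of the 8 probes passed limma's test (0 had an unadjusted p under 0.05), where 6.47% of all kept probes passed as higher and 3.92% as lower, and the median of the 8 was 0.67 against 0.59. The differences ran from -0.67 ± 0.998 for MYD88 A_73_P033026 to 0.94 ± 0.633 for IRAK1 A_73_111418. Without day 0 replicate 4, IRAK1 A_73_P034066 passed as higher (adjusted p = 0.0478), but it was undetected on every day 0 array and its bound fell under 1, so no fold is given. Without array 4 of every group 1 of 10 probes passed, against 20% higher and 9.08% lower of all probes: CD14 A_73_105177, detected on the 3 probiotic arrays and on no day 0 array, was at least 1.78-fold higher (2.93 ± 0.627, adjusted p = 0.00540).

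The day 0 and LPS arrays followed the probiotic arrays unevenly over the array surface. The array was divided into 7 bands of rows, and single arrays were set against the mean of probiotic replicates 1 to 3. For day 0 arrays the rank correlation across probes had a median of 0.904 in the first and last bands and 0.406 in the bands between. LPS arrays had 0.954 and 0.728, and untreated arrays had 0.251 and 0.306. Of the 10 probes tested on 16 or 12 arrays, both IRAK1 probes, CD14 A_73_105177 and LY96 A_73_P150296 lie in the bands between and the other 6 in the first or last band. The part of position in these results was not tested.

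**Figure D3:**
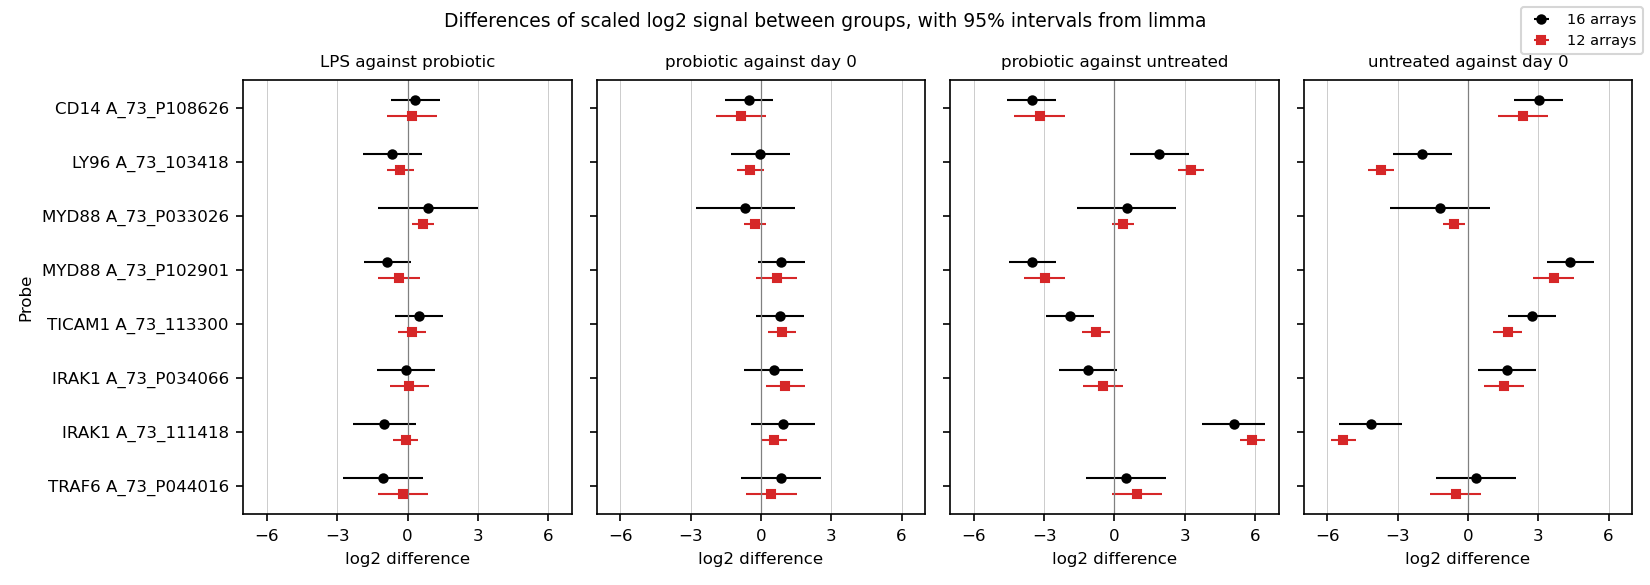
Differences of scaled log2 signal for the 8 tested probes in the 4 comparisons, first group over second, with 95% intervals from limma; black circles use all 16 arrays and red squares the 12 arrays left when array 4 of every group is left out. In LPS against probiotic blood the intervals of all 16 arrays hold 0 for every probe; against untreated blood IRAK1 A_73_111418 lies at 5.09 and CD14 A_73_P108626 at -3.53.

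Scaling of whole arrays cancels when 2 probes of a gene are compared on the same array. These ratios were chosen after the values had been seen and are given as a description, without p-values. For MYD88 the log2 ratio of A_73_P033026 to A_73_P102901 was 5.48, 5.37, 5.40 and 3.11 in probiotic blood, 6.31, 6.61, 6.39 and 6.97 on the LPS arrays and 6.67, 6.29, 6.02 and 6.54 on the day 0 arrays, against 1.37, 3.42, 1.43 and -2.91 on the untreated arrays. The LPS ratios stood above the probiotic ones by 1.73 in the mean and by 1.02 over replicates 1 to 3, while the probiotic and untreated ratios overlapped. How often probe pairs of other genes differ in this way was not counted, so this is not read as a result about MYD88. A_73_P102901 was not well above background on LPS replicate 4 and on 3 of the 4 day 0 arrays, nor was A_73_P033026 on untreated replicate 4, so the ratio there rests on dim spots. For IRAK1 the ratio of A_73_111418 to A_73_P034066 was 5.60 to 5.82 in probiotic blood and 5.55 to 5.61 on LPS replicates 1 to 3. It was 2.29 on LPS replicate 4, where A_73_P034066 was undetected. On day 0, where A_73_P034066 was undetected, it ran from 2.52 to 6.56. On the untreated arrays, where both probes were undetected, it ran from -1.13 to 0.0.

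**Figure D4:**
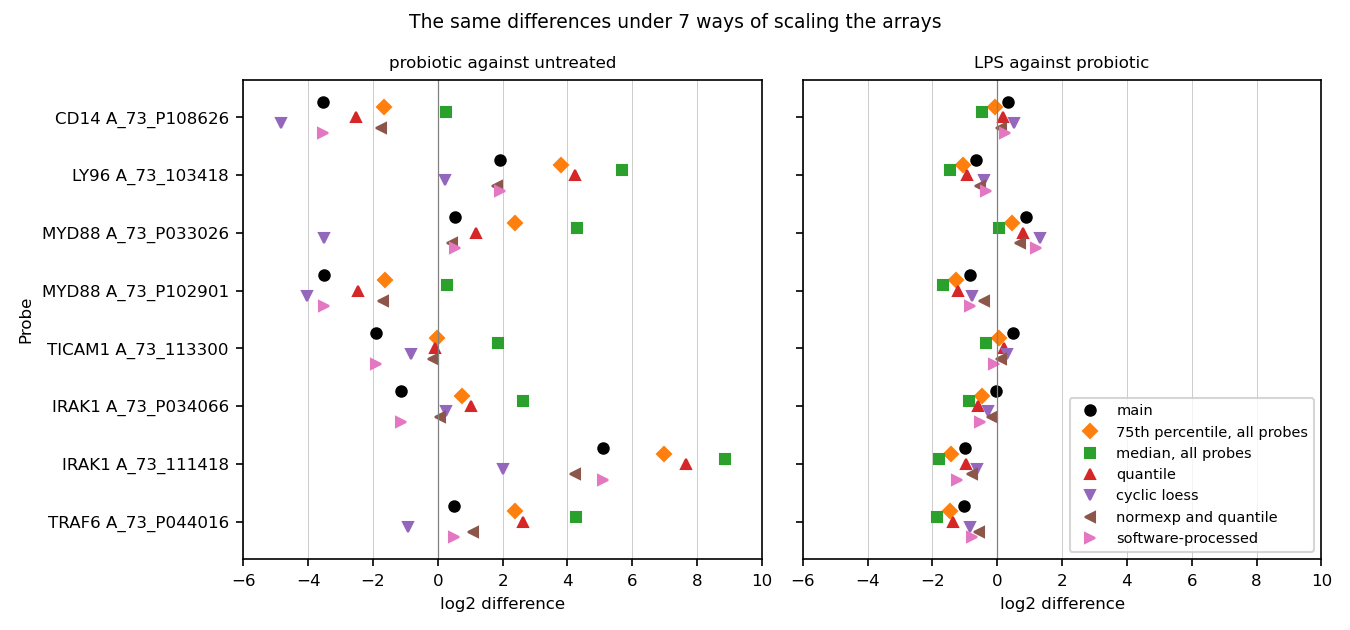
The same log2 differences under 7 ways of scaling the arrays, for probiotic against untreated (left) and LPS against probiotic blood (right), 1 row a probe and 1 symbol a scaling. Against untreated blood CD14 A_73_P108626 runs from -4.85 to 0.24 and MYD88 A_73_P033026 from -3.51 to 4.29, while IRAK1 A_73_111418 stays between 2.00 and 8.87; in LPS against probiotic blood MYD88 A_73_P033026 stays between 0.06 and 1.31.

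The rest of the pathway was followed with a list of 42 genes around TLR4 (receptor, kinases, ubiquitin enzymes, transcription factors), of which 40 probes of 27 genes were kept. In LPS against probiotic blood 0 of the 40 passed limma's test (3 had an unadjusted p under 0.05), with a median of -0.37. In probiotic against untreated blood 15 passed as higher and 7 as lower (23.8% and 35.3% of all kept probes), with a median of 1.17 against -0.30; 9 of the 15 and 2 of the 7 were undetected on every array of 1 of the groups. ITGB2, the beta chain of leukocyte integrins, was at least 29.9-fold higher with A_73_P371671, CHUK, a kinase that frees NF-kB, at least 3.50-fold, and LY86, a partner of the TLR4 relative CD180, at least 3.22-fold with A_73_108161, all 3 undetected on the untreated arrays. IRF7, an interferon regulator, was lower by -3.31 ± 0.602 with A_73_P050461, and SARM1, an inhibitory adaptor, by -2.80 ± 0.630, detected on 1 untreated array. CNPY3, a chaperone of Toll-like receptors, was lower with A_73_118299 by -7.003 ± 1.43, detected on 1 probiotic and 3 untreated arrays, while its other 2 kept probes did not pass (-0.86 ± 0.455 and -0.05 ± 0.616).

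Against day 0, CNPY3 A_73_118299 was the only 1 of the 40 to pass in probiotic blood (-5.83 ± 1.43, adjusted p = 0.0186). Its other 2 probes gave 1.42 ± 0.455 and 0.30 ± 0.616, and without array 4 of every group the first of these, A_73_P168927, passed as higher (adjusted p = 0.000735) while undetected on day 0. In untreated blood against day 0, 9 passed as higher and 6 as lower (39.9% and 16.3% of all kept probes); 4 of the 9 were undetected in both groups. IRF7 A_73_P050461 was highest by the fit at 3.68 ± 0.602, and ITGB2 A_73_P371671 was at least 19.2-fold lower. Probes of 1 gene passed in opposite directions for ITGB2 and MAP3K7. ITGB2 A_73_P250486 gave -2.26 ± 0.760 in probiotic against untreated and 3.02 ± 0.760 in untreated against day 0, opposite to A_73_P371671 and A_73_P338026, and did not pass in either comparison without array 4 of every group (adjusted p = 0.351 and 0.141). MAP3K7, a kinase downstream of TRAF6, passed in probiotic against untreated as higher with A_73_P035731 and as lower with A_73_P452531, both undetected in untreated blood. MAP3K7 A_73_P035731 and ITGB2 A_73_P338026 passed the filter through the probiotic group alone, so their calls as higher there are conditioned by the filter.

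Early targets of the pathway, cytokines, chemokines and feedback genes, gave 9 kept probes of 7 genes out of 20. In LPS against probiotic blood 0 of 9 passed limma's test (1 had an unadjusted p under 0.05), GRO1, a neutrophil chemokine, standing highest (1.90, adjusted p = 0.0625). Without array 4 of every group 4 of 17 passed, all higher with LPS, against 4.23% of all probes. These were the chemokines CXCL2 (2.79 ± 0.255), GRO1 (2.32 ± 0.255) and CCL3 (A_73_P102451, 1.16 ± 0.252), and the cytokine IL1A, undetected on the probiotic arrays and at least 2.13-fold higher. The limma adjusted p ran from 6.23e-05 to 0.0180. Among the day 60 groups kept here, IL1A was detected on the LPS arrays and on no probiotic or untreated array. Its call as higher with LPS may thus be conditioned by the filter. On the same 12 arrays 3 of 50 pathway probes passed as higher and 2 as lower, against 4.23% and 3.89% of all probes. In probiotic against untreated blood 3 of 9 early target probes passed as higher and 4 as lower, close to the 23.8% and 35.3% of all kept probes. NFKBIA, the inhibitor of NF-kB, was higher by 2.71 ± 0.432 with A_73_102507; without array 4 of every group a second NFKBIA probe, A_73_P262576, was tested and passed as lower (adjusted p = 0.000166), undetected on the probiotic and detected on 1 of 3 untreated arrays. CCL4 was at least 32.5-fold lower in probiotic blood, where it was undetected, and CCL3 A_73_119009 and IL10 A_73_109074 were lower by -4.21 ± 0.621 and -3.88 ± 0.553. Of 3 IL1B probes, A_73_110556 passed as at least 2.98-fold higher, A_73_P108091 passed as lower (-3.83 ± 0.600) and A_73_P040131 did not pass (2.57 ± 1.60). Against day 0, GRO1 was at least 3.10-fold higher in probiotic blood and CCL4 at least 8.81-fold lower.

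The cells that carry these molecules also read differently between groups. Of 5 monocyte markers 3 were detected on all day 0, 2 on all probiotic, 3 on all LPS and 0 on all untreated arrays, with CD163 detected on none, and their summed signal relative to the scaling level ran from 1.93 to 3.09 on the probiotic against 0.0806 to 0.291 on the untreated arrays. Neutrophil markers ran from 6.61 to 9.01 against 0.614 to 1.37, and T cell markers from 3.36 to 4.66 against 0.293 to 1.01. B cell markers ran from 2.38 to 3.34 against 2.95 to 6.95. The sums hide probes that disagree. Against untreated blood 2 monocyte probes passed as higher and 2 as lower (CSF1R A_73_118762 and CD68). Of the neutrophil probes 4 passed as higher and 1 as lower (S100A12 A_73_115208), where 23.8% and 35.3% of all kept probes passed. Of 4 mammary markers, casein CSN2 was kept, and its 2 probes summed to 0.0363 to 0.0931 on the probiotic and 2.71 to 3.52 on the untreated arrays. In LPS against probiotic blood 2 of 5 monocyte marker probes passed as higher, CSF1R A_73_118762 by 4.70 ± 0.724, detected on 1 probiotic array, and CD68, undetected on the probiotic arrays, at least 9.13-fold, while the other 2 CSF1R probes gave -1.22 and -0.20. CSF1R A_73_118762 passed the filter through the LPS group alone, so its call as higher there is conditioned by the filter. The part of the cell markers in the results above was not tested.

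The 5 probes of named genes whose scaled signal was most like that of MYD88 A_73_P033026 over the 16 arrays were those of BOLA (Pearson r = 0.949), SLC25A11 (0.930), FAM65A (0.920), F7 (0.893) and TMX4 (0.881). Arrays of a group share a pool, so these values describe the pattern and carry no test.

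The authors' deposited table of group averages, whose centring is not given, placed several of these probes differently. By the authors' deposited table, at least 2-fold lower levels with LPS were given for 6 of the 8 tested probes, with MYD88 A_73_P102901 at -1.75 and IRAK1 A_73_111418 at -2.16. The share of all probes past 2-fold there is not given here, so this count is not read as a result about these genes. For probiotic against day 0 the authors' deposited table gave 6.49 for MYD88 A_73_P102901, 5.19 for CD14 A_73_P108626 and 5.30 for TICAM1, and 0.57 for IRAK1 A_73_111418 against untreated blood.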

How the data were processed

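The scanner files hold single-colour intensity per spot, already background-subtracted, per the file headers, and were made with Agilent Feature Extraction 10.10.1.1, per the submitters' processing notes. The authors' deposited table of group averages holds log2 values, with scale, centring and per-array values not given there; it gave gene symbols, probe sequences and 1 alternative. Per the labels' protocols, whole-blood RNA (RIN above 7) was pooled and 0.5 µg labelled with Cy3.

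Net signals were raised to at least each array's additive error estimate, taken as log2 and set relative to the 75th percentile over the 712 probes well above background on all 16 arrays. Outlier spots were left out (0 of the member spots). A probe was kept when well above background on all 4 arrays of at least 1 group (12233 of 43653). All 16 arrays entered 1 limma 3.58.1 fit (R 4.3.3; lmFit, eBayes), two-sided with Benjamini-Hochberg adjustment over kept probes. The step was tested on simulated data. The number of arrays limits precision.

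The planned floor (a surrogate column) and mean-signal column were not in the files used here, so the floor above and median signals (for normexp) took their place. The scan-day block was not run, since scan day is fixed by group. Of 22 probes 19 carry an accession that RefSeq (ARS-UCD2.0) pairs with the same symbol. No coordinates are given, since that build differs from the array's. Genes named outside the 10 were those with up to 3 highest and 3 lowest passing differences of each list; others, and other probes of these genes, are named where probes of 1 gene disagreed or from the 12 arrays, and were chosen after their values were seen. The members and lists were chosen with earlier results of these data known. Alternatives covered scaling, background, filter, array weights and left-out arrays.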

Additional observations from a re-analysis of the deposited data

Results flagged for a closer look

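Of 32 sets of 4 arrays (8 probes in 4 groups), 13 held an array far from the other 3 by Dixon's test. Chance marks about 1 in 20 independent sets, but the 8 probes were read on the same arrays. The sets are thus not independent, and 1 poor array can mark several of them. In 12 of the 13 it was replicate 4. Values are scaled log2 signals.

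On day 0, replicate 4 stood at -5.07 for LY96 A_73_103418 (others -3.20 to -3.16), at -2.41 for IRAK1 A_73_111418 (others -1.59 to -1.55) and at -5.98 for TRAF6 (others -4.47 to -4.41), and above the others at -4.93 for IRAK1 A_73_P034066 (others -8.11 to -7.61). Day 0 replicate 3 stood at -0.36 for MYD88 A_73_P033026 (others -0.13 to -0.12).

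Among the probiotic arrays, replicate 4 stood at -2.22 for MYD88 A_73_P033026 (others -0.40 to -0.38). It stood above the others at -5.28 for CD14 A_73_P108626 (others -5.91 to -5.89), -6.24 for TICAM1 (others -6.79 to -6.70) and -0.48 for IRAK1 A_73_111418 (others -0.999 to -0.942). The net signal of CD14 on that array, 185, lay within the range of the other 3, and that of TICAM1, 94.8, below it.

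Among the untreated arrays, replicate 4 stood at -5.64 for MYD88 A_73_P033026 (others -0.30 to 0.32), with a net signal of -0.15. Among the LPS arrays, replicate 4 stood at -7.86 for MYD88 A_73_P102901 (others -6.22 to -5.99), at -4.44 for IRAK1 A_73_111418 (others -1.05 to -0.85) and at -7.86 for TRAF6 (others -4.20 to -3.98). The cause was not tested.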

How the results depend on the processing

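Counts of the 8 probes that passed were 0 (LPS against probiotic), 5 (probiotic against untreated), 0 (probiotic against day 0) and 6 (untreated against day 0). Counts without a filter are out of all 22 probes, including the 14 not tested otherwise. The share of all probes under that setting is not given here. Counts without array 4 of every group are out of 10, and those with the strict filter out of fewer than 8. In probiotic against day 0 the count was 4 with software-processed signals, 3 with median scaling, 1 with array weights, 1 without array 4 of every group, 5 without a filter and 5 in the authors' deposited table (probes past 2-fold); leaving out 1 array gave 0 to 1. In probiotic against untreated it was 18 without a filter, 2 with the strict filter and 1 in the authors' deposited table (leaving out 1 array: 5 to 6). In untreated against day 0 it was 3 with median scaling, 18 without a filter and 0 with the strict filter, which kept 0 of the probes for that comparison (leaving out 1 array: 5 to 6). In LPS against probiotic the authors' deposited table gave 6 (leaving out 1 array: 0 to 0).

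Signs turned as follows, in log2. In LPS against probiotic: TICAM1 -0.10 (software-processed) and -0.34 (median), CD14 A_73_P108626 -0.079 (75th percentile of all probes) and -0.47 (median), IRAK1 A_73_P034066 0.081 (array weights) and 0.085 (without array 4 of every group). In probiotic against untreated: IRAK1 A_73_P034066 0.73 (75th percentile of all probes), 2.63 (median), 1.01 (quantile), 0.25 (cyclic loess) and 0.073 (normexp), TICAM1 1.87, MYD88 A_73_P102901 0.28 and CD14 0.24 (median), MYD88 A_73_P033026 -3.51 and TRAF6 -0.91 (cyclic loess), and LY96 -0.48 (authors' deposited table). In probiotic against day 0: LY96 A_73_103418 0.77 and CD14 1.21 (software-processed), and LY96 1.47, MYD88 A_73_P033026 0.83 and CD14 0.98 (median). In untreated against day 0: IRAK1 A_73_P034066 -0.39 (75th percentile of all probes), -0.60 (median) and -0.81 (quantile), TRAF6 -1.73, -1.94 and -2.10 under the same settings, -0.95 (normexp), -0.12 (array weights) and -0.52 (without array 4 of every group), MYD88 A_73_P033026 2.20 (cyclic loess) and LY96 0.066 (authors' deposited table). Leaving out 1 array turned LY96 in probiotic against day 0 (-0.50 to 0.14), TRAF6 (-0.10 to 0.73) and MYD88 A_73_P033026 (-1.74 to 0.24) in untreated against day 0, MYD88 A_73_P033026 in probiotic against untreated (-0.91 to 1.08) and IRAK1 A_73_P034066 in LPS against probiotic (-0.14 to 0.11). Beyond LY96, the authors' deposited table turned further signs. In LPS against probiotic it gave TICAM1 -1.02 and CD14 A_73_P108626 -0.70. In probiotic against untreated it gave MYD88 A_73_P033026 -0.41 and TRAF6 -0.95. In probiotic against day 0 it gave IRAK1 A_73_111418 -0.80 and CD14 A_73_P108626 5.195, and in untreated against day 0 MYD88 A_73_P033026 0.34. Without untreated replicate 2, IRAK1 A_73_P034066 passed limma's test in probiotic against untreated (adjusted p = 0.0446). The cause was not tested.

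Scaling moved the split of all calls. Probiotic against untreated had 2917 higher and 4321 lower, but 6118 and 2140 with the 75th percentile of all probes, 8571 and 550 with the median, 6102 and 2313 with quantile, 1217 and 4538 with cyclic loess and 4451 and 2275 with normexp; the median over all probes moved from -0.30 to 1.57, 3.47, 1.96, -0.52 and 0.62. Untreated against day 0 had 4887 and 1988, but 1733 and 5106, 1420 and 3988, 2232 and 4767, 3857 and 856, and 2102 and 3505 under the same 5 settings. Probiotic against day 0 had 791 and 479, but 4660 and 1790 with software-processed signals and 5095 and 334 with the median. Replicate numbers did not pair the arrays (correlations of same-numbered deviations from -0.18 to 0.27), and a fit with the replicate block gave the same counts of 0, 5, 0 and 6. Signal over background limits what can be said of the 14 probes that were not tested and of all probes undetected on the untreated arrays.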
